A study of Mus musculus with 9 samples.

Results

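The baseline expression profile of E14 cells, as given by the cultures that received DMSO alone, is described here from 3 arrays of the 9 in the series. These are the 3 arrays whose titles name them as DMSO controls, and the 6 arrays of cells given 5-Iodotubercidin (5-ITu), an adenosine analogue that inhibits the mitotic kinase Haspin, were used only to learn how the table was filtered. Of the 10476 probe sets with values, 8854 name exactly 1 gene and stand for 8625 genes, while 668 name several genes and 954 name none. E14 is a mouse embryonic stem cell (ESC) line of blastocyst origin. The cells were held undifferentiated in serum with leukemia inhibitory factor (LIF), and the DMSO control marks the solvent of 5-ITu, given for 26 h. The study describes the 3 arrays as biological replicates, each hybridized with total RNA of a whole culture, so that fewer cells of a kind and less RNA per cell cannot be told apart.

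Each value is a normalized log2 signal of a probe set on a GeneChip Mouse Gene 2.0 ST array. A signal is also shaped by the probes themselves, and hence the rank of a gene given below is a rank of signal and not of transcript number. A gene was represented by its brightest probe set, and its error is the standard deviation (SD) over the 3 arrays. The background threshold of the study lies at 8.46 on the log2 scale. Genes were classed as under it when their mean lay below 8.46, dim when the mean exceeded it by less than 1 log2 unit (up to 9.46), bright when they belonged to the 10% with the highest mean, and middle otherwise. Every row of the table exceeds 8.46 on at least 1 of the 9 arrays. A gene under the threshold in DMSO is therefore listed only because an array of treated cells, or 1 or 2 of the DMSO arrays, lay over it. A gene with no single-gene row here is not analysed. It may have lain under 8.46 on all 9 arrays, share a row with other genes or have no annotated row, which was not tested.

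ESCs keep the capacity to form all tissues of the embryo through a network of transcription factors centred on Oct4 (Pou5f1), Sox2 and Nanog. In serum, LIF sustains this network through the receptor pair Lifr and Il6st and the transcription factor Stat3, while Fgf4 made by the cells themselves drives them towards differentiation through ERK. The cells divide fast with a short G1 phase and rely strongly on glycolysis.

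The 8625 genes had a median signal of 9.73, with quartiles at 8.94 and 10.68 and a highest mean of 13.76. Of these, 862 genes were bright, 4179 middle, 2856 dim and 728 under the threshold. On all 3 arrays 7578 genes lay over the threshold, and 439 lay over it on none. With the limma test of each probe set against the threshold, 8862 probe sets (84.6% of 10476) were called over and 349 (3.33%) under it at an adjusted p below 0.05. Only probe sets over this same threshold on some array of the series were listed, and this filter favours calls over it. The shares called over, here and in the gene lists below, therefore describe listed probe sets only. A probe set under the threshold on every DMSO array was listed only because an array of treated cells lay over it. Without replicate 2 the count under the threshold was 227 and without replicate 3 it was 203, while the count over it stayed between 8416 and 8739 when any replicate was left out. Of the 728 genes with a mean below the threshold, 276 were called under it and 452 were not called on either side, which is meant below where a gene could not be placed.

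**Figure D1:**
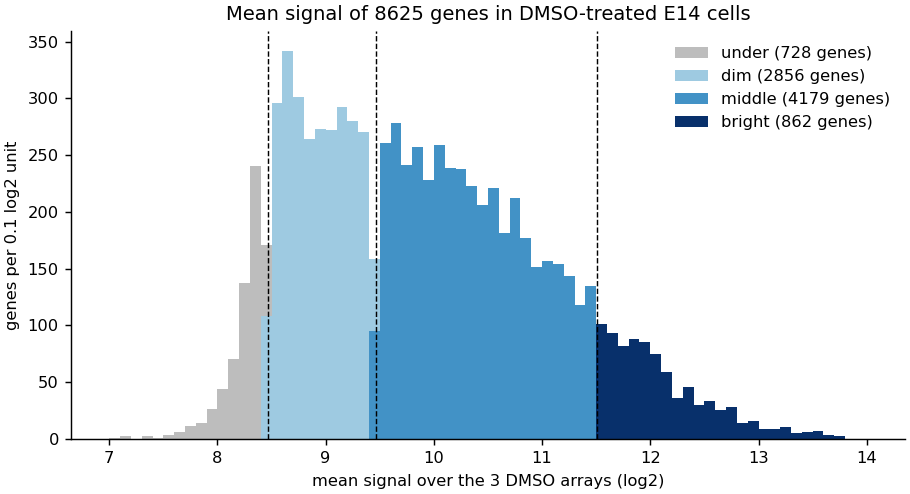
Histogram of the mean log2 signal of 8625 genes over the 3 DMSO arrays (x axis, log2 units; y axis, genes per 0.1 log2 unit), coloured by class. Dashed lines mark the threshold at 8.46, the upper limit of dim genes at 9.46 and the lower limit of the 862 bright genes at 11.51; the median gene lies at 9.73.

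The edges of these classes separate genes that differ little. The lowest bright genes were Xrcc5, Baz2a and Rab11b with means that all round to 11.51, and the next genes below were Ptprk, Car2 and Socs2 with means that all round to 11.50. At the threshold, Prkcb, Amdhd2 and Dbi had means of 8.46 ± 0.30, 8.46 ± 0.059 and 8.46 ± 0.24, and Slc15a1, Spaca6 and Klhl42 had 8.46 ± 0.28, 8.46 ± 0.14 and 8.46 ± 0.22. The SDs of these 6 genes, from 0.059 to 0.30, exceeded their distance from the threshold. Leaving out an array in turn kept between 841 and 847 of the 862 bright genes bright. With each gene taken as the mean over its probe sets, 820 of the 862 stayed bright.

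The brightest named genes encode the protein synthesis machinery, the respiratory chain, glycolysis and tubulin. Among the 25 brightest genes that are neither numbered loci nor small RNAs, 8 encode proteins of the cytosolic ribosome and 8 lie in the mitochondrial genome. Rps6, a protein of the small ribosomal subunit, gave 13.64, 13.66 and 13.70 on the 3 arrays and stood behind only Mir5099 and ND4. The other 7 ribosomal genes were Rpl41, Rpl28, Rpl21, Rpl29, Rpl4, Rps26 and Rpl35, with means between 13.28 and 13.55. Both main elongation factors belonged to the group, with 13.51, 13.53 and 13.59 for Eef1a1, which brings aminoacyl-tRNA to the ribosome, and 13.47, 13.54 and 13.58 for Eef2, which drives translocation. Array 3 was the highest for both, and their SDs were 0.039 and 0.053.

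ND4, a subunit of respiratory complex I, was the brightest gene of the mitochondrial genome with 13.75, 13.75 and 13.75. COX1, the catalytic subunit of complex IV, gave 13.57, 13.62 and 13.70, and CYTB, of complex III, gave 13.44, 13.50 and 13.53. The complex I subunits ND5, ND1, ND3, ND4L and ND2 had means between 13.30 and 13.52. Of the 10 mitochondrial genes measured, 9 were bright and the exception, ND6, was dim with 8.83, 8.85 and 8.78 (chosen after its values were seen). ND6 is the protein gene carried by the opposite strand of the mitochondrial genome.

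The remaining genes of this group were Tubb5, a β-tubulin, at 13.60 on every array, Atp5b, the catalytic β-subunit of ATP synthase, with 13.50, 13.50 and 13.49, and Gapdh with 13.46, 13.41 and 13.45. H4c12, a replication-dependent histone H4 gene, gave 13.35, 13.30 and 13.37. Slc2a1, the glucose transporter GLUT1, gave 13.30, 13.31 and 13.24, Pkm, the pyruvate kinase of proliferating cells and muscle, gave 13.30, 13.27 and 13.27, and Pcbp2, an RNA-binding protein, gave 13.29, 13.36 and 13.36. The SDs of all 25 genes lay at or below 0.13, the value of Rpl28.

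The promoter of Rps6 is shown since it carries a motif found more often in windows of bright genes. The window spans 250 bases before to 50 bases after the start site in RefSeq (GRCm38.p6, chr4:86857318-86857617, minus strand), and the capitals mark a palindrome of 10 bases, TCTCG followed at once by its reverse complement, which reads the same on both strands, 51 to 42 bases upstream of the start.
Rps6: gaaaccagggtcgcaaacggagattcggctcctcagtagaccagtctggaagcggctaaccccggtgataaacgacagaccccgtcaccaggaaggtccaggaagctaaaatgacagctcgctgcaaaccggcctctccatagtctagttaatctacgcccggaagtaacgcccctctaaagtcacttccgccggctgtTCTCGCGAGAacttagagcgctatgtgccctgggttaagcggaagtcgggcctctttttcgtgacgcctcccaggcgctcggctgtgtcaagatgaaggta
This motif occurred in 2.81% of 784 promoter windows of bright genes, 0.676% of 2959 windows of dim genes, 0.414% of 724 windows of genes under the threshold, 1.25% of 8688 windows of all measured genes and 0.466% of all 32851 windows in the table. Among ribosomal protein genes, 5 of 49 windows held it, those of Rps6, Rps28, Rpl10a and Rps19. It was 1 of 14 motifs searched and was chosen after the shares were seen, and the shares are given as a description.

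Most core pluripotency factors lay in the upper part of the profile, although Oct4 itself did not. Of 20 genes listed, 18 were measured, and 7 were bright, 10 middle, 1 dim and 0 under the threshold. Their median was 11.16, against 9.73 for all genes, and 17 of the 18 were called over the threshold, a call made for 85.5% of all genes. Nanog, the homeobox factor that stabilises the undifferentiated state, gave 12.97, 12.85 and 13.05, and 99.4% of the genes were dimmer. Sox2, the partner of Oct4 on DNA, gave 12.38, 12.55 and 12.43. Utf1, a chromatin-bound ESC factor, gave 12.82, 12.66 and 12.82, and Dppa2, which opens chromatin of developmental genes together with Dppa4, gave 12.65, 12.54 and 12.54.

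Trim28, a corepressor that silences retroviral elements, gave 12.88, 12.84 and 12.78. Mybl2, a cell cycle transcription factor, gave 12.66, 12.78 and 12.78, and Sall4, a zinc-finger partner of Oct4 and Nanog, gave 11.87, 11.82 and 11.69. These 7 genes were the bright members. Directly under the limit of bright genes stood Rif1, a telomere and replication timing factor, with 11.49, 11.50 and 11.49, followed by Dppa4 with 11.31, 11.21 and 11.20.

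Pou5f1 gave 9.69, 9.52 and 9.56 and was a middle gene, 1.13 log2 units over the threshold (adjusted p = 1.4e-05), with 45.4% of the genes dimmer. With an SD of 0.086, this level was common to all 3 arrays. Pou5f1 is represented by 1 probe set here, and other genes show how far probe sets of 1 gene may differ: the 3 probe sets of Rpl35 had means of 13.28, 8.53 and 8.33.

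Lin28a, an RNA-binding protein that blocks let-7 maturation, gave 10.87, 11.18 and 10.83, and L1td1, an RNA-binding protein derived from a LINE-1 element, gave 10.77, 10.84 and 10.61. Zscan10 gave 11.38, 10.94 and 10.93, with array 1 above both others. The proto-oncogene Myc gave 10.27, 9.67 and 9.82 and its relative Mycn gave 10.24, 9.84 and 9.75, both again highest on array 1. The other middle genes were Zfp281 with a mean of 10.08 ± 0.12 and Thap11 with 9.69 ± 0.037. The core factor that could not be called over the threshold was Foxd3, a forkhead factor needed for ESC maintenance, with 9.24, 8.58 and 8.48 (adjusted p = 0.14). Array 1 of Foxd3 stood clearly over the threshold and both others lay next to it.

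The promoter of Nanog is shown because it holds the neighbouring octamer and SOX elements through which Oct4 and Sox2 are known to act together. The window (RefSeq, GRCm38.p6, chr6:122707239-122707538, plus strand) is the upstream one of 2 that the table holds, and the capitals mark TTTGCAT, 75 to 69 bases before the start site, and ACAATG, the reverse complement of CATTGT, 67 to 62 bases before it.
Nanog: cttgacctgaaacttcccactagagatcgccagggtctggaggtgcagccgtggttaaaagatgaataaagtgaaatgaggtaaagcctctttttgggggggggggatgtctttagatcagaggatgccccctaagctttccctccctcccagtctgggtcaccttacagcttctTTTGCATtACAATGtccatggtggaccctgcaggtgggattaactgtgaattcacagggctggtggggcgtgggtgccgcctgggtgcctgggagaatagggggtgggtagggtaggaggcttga
Searched on both strands, TTTGCAT was found in 3 of 15 windows of core pluripotency factors (Nanog and Sox2) and in 4.63% of all windows. CATTGT, which may share its first 3 letters with the end of TTTGCAT, was found in 5 of 15 windows (Nanog, Lin28a, Thap11 and Pou5f1) and in 12.6% of all. In the windows of measured genes the shares were 3.10% for TTTGCAT and 6.87% for CATTGT. Each was found in 1 of 32 windows of naive pluripotency factors. Both were among the 14 motifs searched. The table held promoters of 13 of the 18 genes. A match is a run of letters and not a measured binding site.

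**Figure D2:**
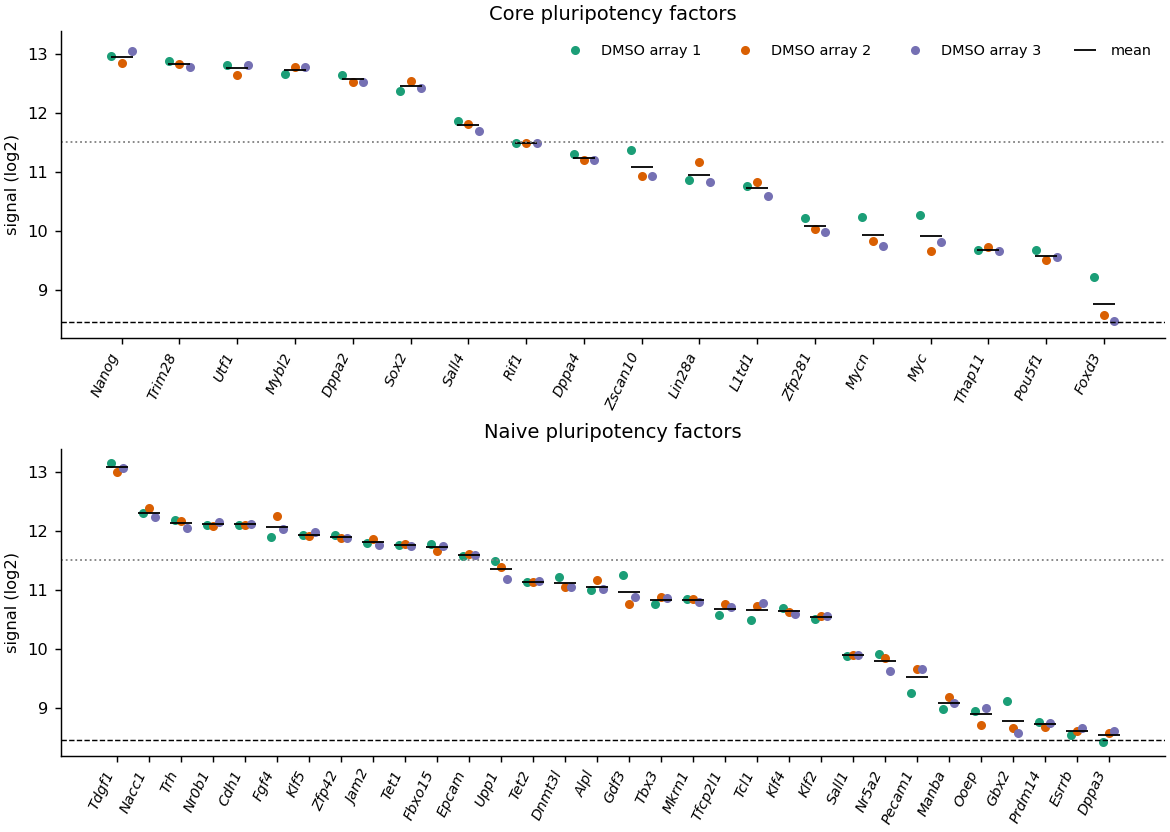
Log2 signal of each measured core (upper panel, 18 genes) and naive (lower panel, 32 genes) pluripotency factor on the 3 DMSO arrays, with black bars at the means; the dashed line is the threshold at 8.46 and the dotted line the lower limit of bright genes at 11.51. Nanog, Utf1 and Sox2 lie near the top with little spread, Pou5f1 lies in the middle range, and Foxd3, Gbx2, Esrrb and Dppa3 lie close to the threshold.

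Genes listed for the naive state, the ground state of the preimplantation epiblast, were bright in part and near background in part. The bright members include Fgf4 and adhesion genes, so the counts describe the list and not the naive state alone. Of 39 listed genes 32 were measured, with 12 bright, 14 middle, 6 dim and 0 under the threshold, and a median of 11.02. Tdgf1 (Cripto), the Nodal co-receptor, was the brightest with 13.15, 13.01 and 13.08. Klf5 gave 11.93, 11.91 and 11.99, Zfp42 (Rex1), a marker of the naive state, gave 11.93, 11.89 and 11.89, and Fgf4, the growth factor that primes ESCs for differentiation, gave 11.90, 12.25 and 12.03. Nr0b1 (Dax1), a nuclear receptor-like corepressor, gave 12.10, 12.09 and 12.16. The remaining bright members were Nacc1, Trh, the adhesion genes Cdh1 (E-cadherin), Jam2 and Epcam, the methylcytosine dioxygenase Tet1, and Fbxo15, an Oct4 target, with means from 11.60 (Epcam) to 12.31 (Nacc1).

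Klf4 and Klf2, the Krüppel-like factors downstream of LIF and of ERK inhibition, were middle genes with 10.70, 10.63 and 10.60 and 10.50, 10.56 and 10.56. Tbx3, a T-box factor activated by LIF, gave 10.76, 10.88 and 10.87, and Tfcp2l1, a Stat3 target, gave 10.57, 10.76 and 10.71. Among the other middle genes, Upp1, Tet2, Dnmt3l, Alpl (alkaline phosphatase), Gdf3, Mkrn1 and Tcl1 had means from 10.67 (Tcl1) to 11.36 (Upp1). Sall1, Nr5a2 and Pecam1 followed with 9.90 ± 0.0071, 9.80 ± 0.14 and 9.53 ± 0.23. Gdf3, a TGF-β family ligand, and Pecam1, an adhesion molecule of ESCs and endothelium, had the widest spread of these, with 11.26, 10.77 and 10.88 and 9.26, 9.67 and 9.67.

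The dim members of the list were Manba, Ooep, Gbx2, Prdm14, Esrrb and Dppa3. Esrrb, an orphan nuclear receptor of the naive network, gave 8.54, 8.62 and 8.66 (adjusted p = 0.042), a call that was lost without replicate 2 (adjusted p = 0.13) and without replicate 3 (adjusted p = 0.19). Prdm14, which represses FGF signalling and DNA methylation, gave 8.77, 8.68 and 8.75. Dppa3 (Stella), an oocyte and primordial germ cell factor, gave 8.44, 8.58 and 8.62 and Gbx2, a LIF target, gave 9.12, 8.66 and 8.58. Neither of these could be placed over the threshold (adjusted p = 0.24 for Dppa3 and 0.053 for Gbx2). Manba had a mean of 9.09 ± 0.10 and Ooep of 8.90 ± 0.15.

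Of 16 listed genes of the LIF pathway 13 were measured, with 0 bright, 9 middle, 2 dim and 2 under the threshold. The test called 11 of the 13 over the threshold, a share near the 85.5% of all genes. The receptor subunits gave 10.29, 10.35 and 10.22 for Lifr and 10.83, 10.97 and 10.85 for Il6st (gp130). Jak1, the kinase bound to gp130, gave 10.40, 10.56 and 10.59, Stat3 gave 11.03, 11.03 and 11.00, and the phosphatase Ptpn11 (Shp2), which links the receptor to ERK, gave 10.26, 10.34 and 10.34. The arrays differed little in these genes, with SDs from 0.017 (Stat3) to 0.10 (Jak1).

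Socs2, a feedback inhibitor of cytokine signalling, was the brightest gene of the pathway with 11.55, 11.46 and 11.50, the third gene outside the bright class, and it entered that class when replicate 2 was left out. Socs3, the feedback inhibitor of gp130 itself, gave 9.05, 8.91 and 8.84 and was dim. The Stat3 targets Pim1 and Pim3 had means of 10.50 ± 0.17 and 10.04 ± 0.033, the adaptor Grb2 9.53 ± 0.12 and Tyk2 8.76 ± 0.017. Jak2 was called under the threshold with 7.74, 8.14 and 8.11 (adjusted p = 0.009), whereas Stat5b, with 7.94, 8.62 and 8.48, could not be placed (adjusted p = 0.49). Stat5b was low on array 1 and near the threshold on both others, and without replicate 1 only 1 gene of the list had a mean under the threshold.

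Components of the other pathways that act on ESCs showed a wide range. In the FGF and ERK list, 19 of 29 genes were measured, with 0 bright and 15 middle. The brightest were the negative regulator Spry4 with 11.57, 11.26 and 11.10, the kinase Braf with 11.25, 11.26 and 11.33, the ETS factor Etv5 with 11.54, 11.08 and 11.22 and the GTPase Nras with a mean of 11.03. Spry4 and Etv5, both ERK targets, were highest on array 1, while Braf varied little. At the low end stood the phosphatases Dusp4 and Dusp5 with 9.38 ± 0.054 and 8.88 ± 0.063, the receptor Fgfr2 with 9.06 ± 0.042 and the ETS factor Etv4 with 8.61, 8.22 and 8.13, the only member with a mean under the threshold (adjusted p = 0.26).

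In the Wnt list, 18 of 26 genes were measured. β-catenin (Ctnnb1) gave 11.96, 12.08 and 11.97 and Tcf7l1 (Tcf3), the repressor that opposes the pluripotency network, gave 11.79, 11.69 and 11.68, and these were the 2 bright members. The co-receptor Lrp6 and the kinase Gsk3b had means of 11.12 ± 0.14 and 11.03 ± 0.02. Axin2, the common target of canonical Wnt signalling, gave 8.36, 8.31 and 8.15 and was called under the threshold (adjusted p = 0.04), a call lost when any of the 3 replicates was left out (adjusted p from 0.051 to 0.18). Rspo1, Fzd4 and Tcf7l2, with means of 8.44 ± 0.05, 8.40 ± 0.21 and 8.58 ± 0.10, could not be placed. Lef1, the transcription factor of the pathway with the largest spread, gave 10.40, 9.79 and 9.55 with array 1 at the top.

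In the BMP and Nodal list, 21 of 24 genes were measured and 0 lay under the threshold. Beside Tdgf1, the bright member was Id2, an inhibitor of helix-loop-helix factors and a BMP target, with 12.07, 12.04 and 12.09. Lefty1, the secreted Nodal antagonist, gave 11.27, 11.57 and 11.52, and the common mediator Smad4 had a mean of 10.98. The receptors Acvr2b and Acvr2a were dim with 8.89 ± 0.13 and 8.51 ± 0.037, as were the signal transducers Smad3 and Smad1 with 8.85 ± 0.17 and 8.60 ± 0.049. Acvr2a could not be called over the threshold (adjusted p = 0.39), and the call of Smad1 (adjusted p = 0.047) was lost when any of the 3 replicates was left out (adjusted p from 0.069 to 0.21).

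Genes of the formative and primed epiblast were measured for 13 of 17 listed. Dnmt3b, a de novo DNA methyltransferase, was the bright member with 12.02, 11.96 and 11.85. Zic2 and Zic5, zinc-finger factors, and Cldn6, a tight junction protein, were middle genes with means of 10.88 ± 0.11, 10.30 ± 0.10 and 10.92 ± 0.071. The dim end held Cdh2 (N-cadherin) with 9.15 ± 0.098, Grhl2 with 9.01 ± 0.088, Sox4 with 8.89 ± 0.011 and Sox3, which could not be called over the threshold, with 8.58, 8.50 and 8.55. Of the 13 genes, 11 were highest on array 1 (84.6%, against 35.1% of all genes) and 9 were lowest on array 3 (69.2%, against 26.3%).

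Few lineage markers had a probe set here. Measured were 5 of 22 ectoderm and neural markers, 6 of 27 mesoderm, 7 of 28 endoderm and 7 of 20 trophectoderm markers, and none of these was bright. Of the neural markers, Tubb3 gave 9.83, 9.41 and 9.52 and Ncam1 9.09, 9.37 and 9.31, both over the threshold. Nes (nestin), Pax6 and Map2, with means of 8.47 ± 0.12, 8.37 ± 0.16 and 8.21 ± 0.25, could not be placed on either side. Nes crossed the threshold with the arrays used, which left 1 dim gene in this list without replicate 2 or without replicate 3, against 2 with all arrays.

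Among mesoderm markers, Gata2, also a trophectoderm gene, gave 7.75, 7.62 and 7.71 and was called under the threshold (adjusted p = 0.0002). Nkx2-5, the cardiac homeobox factor, gave 9.05, 8.85 and 9.03, Tek, the angiopoietin receptor, gave 8.97, 8.99 and 8.96, and Acta2, smooth muscle actin, gave 9.35, 9.11 and 9.09. All 3 were dim genes called over the threshold, and Snai2 lay at 8.49 ± 0.16, on the threshold, and under it without replicate 3, when 2 mesoderm genes had means under the threshold in place of 1. The endoderm list held the matrix and basement membrane genes Lamc1, Lamb1, Lama1 and Sparc with means of 11.08 ± 0.16, 10.23 ± 0.088, 8.99 ± 0.068 and 10.34 ± 0.032, and Apoe with 10.24 ± 0.17. Dab2, of primitive endoderm, was called over the threshold with 8.62 ± 0.063 (adjusted p = 0.033) and Fst, the activin antagonist, under it with 8.03 ± 0.20 (adjusted p = 0.0088), and both calls were lost without replicate 2 (adjusted p = 0.11 for Dab2 and 0.076 for Fst) and without replicate 3 (0.16 and 0.069).

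In the trophectoderm list, the keratins Krt8 and Krt18 gave 10.36, 10.22 and 10.19 and 9.74, 9.91 and 9.90, and Plet1 gave 10.48, 10.71 and 10.83. Tfap2c and Tead4, transcription factors that ESCs also use, had means of 9.53 ± 0.048 and 8.99 ± 0.14. Krt19 was called under the threshold with 8.10, 7.98 and 8.11 (adjusted p = 0.0019). No single-gene probe set of T, Gata4, Gata6, Sox17 or Cdx2 was analysed here.

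Markers of cells foreign to the culture were measured for 10 of 26 fibroblast and feeder genes, 3 of 24 macrophage and blood genes and 2 of 26 genes of muscle, liver and neurons. Fibronectin (Fn1) was the bright gene of the fibroblast list with 12.48, 12.67 and 12.60, followed by the protease Mmp2 with 10.23 ± 0.16, Ccn2 with 10.16 ± 0.066 and Fstl1 with 9.92 ± 0.10. Thy1, a surface antigen of fibroblasts, and Loxl1, a collagen crosslinking enzyme, had means of 8.15 ± 0.20 and 8.21 ± 0.12 and were called under the threshold (adjusted p = 0.026 and 0.018), calls that were lost without replicate 2 (0.077 and 0.095) and, for Thy1, without replicate 3 (0.072) or, for Loxl1, without replicate 1 (0.065). The dim end also held Tagln with 9.03 ± 0.12 and Cald1 with 8.59 ± 0.094. The summed linear signal of the 10 genes was 11563, 12718 and 12577 on the 3 arrays. Fn1, as the brightest, contributed most to this sum, which is no measure of foreign cells. No single-gene probe set of the collagens Col1a1, Col1a2 and Col3a1, of the leukocyte gene Ptprc or of the globins was analysed here. The lysosomal gene Cd68 gave 10.37, 10.10 and 10.43, Laptm5 9.43, 9.37 and 9.39 and Cd3e 9.10, 8.99 and 9.14. Stmn2 gave 11.74, 11.74 and 11.80 and was bright, and Des, desmin, had a mean of 9.23 ± 0.19.

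Genes of the rare 2-cell-like state, in which ESCs express transcripts of the cleavage embryo, were measured for 13 of 25 listed. Zscan4e, of the telomere-maintaining Zscan4 cluster, was bright with 11.63, 11.64 and 11.63, and Zscan4b and Zscan4c gave 10.89, 11.00 and 10.96 and 10.40, 10.32 and 10.37. Gm4340 had a mean of 11.07 ± 0.067. Tdpoz3 and Tdpoz2 lay near the bottom of the profile, with 6.98, 7.20 and 7.36 and 7.66, 7.67 and 7.27 (adjusted p = 0.00017 and 0.00076 under the threshold). Zscan4a was also called under it with 8.12 ± 0.085, and Gm8300 could not be placed with 8.43 ± 0.11. These genes belong to families of near-identical copies, and a probe set may read more than the copy it names.

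Germline genes were measured for 14 of 30. Mael, a piRNA pathway protein, gave 10.93, 10.92 and 11.15, Kit, the receptor of stem cell factor, gave 10.69, 10.72 and 10.72, and Stag3, a meiotic cohesin subunit, gave 10.34, 10.48 and 10.61. The RNA-binding protein Dazl had a mean of 9.60 ± 0.074. At the low end, Mov10l1 and Prdm1 could not be placed with 8.23 ± 0.19 and 8.22 ± 0.27, and Piwil2 was called under the threshold with 8.22 ± 0.12 (adjusted p = 0.021), a call lost without replicate 1 (0.066) and without replicate 3 (0.11). Smc1b, the meiotic cohesin subunit, gave 7.44, 8.43 and 8.54, and array 1 stood far below both others. Of the 14 germline genes, 12 were lowest on array 1 (85.7%, against 37.3% of all genes). Array 1 was also the lowest for 9 of 13 LIF pathway genes (69.2%) and 14 of 22 genes of the integrated stress response and hypoxia (63.6%). For proteasome genes it was the lowest for 3 of 34 (8.82%).

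Of 29 miRNA genes typical of ESCs, only Mir290a and Mir18 had a single-gene probe set here. Mir290a, the leading member of the cluster that makes the bulk of ESC miRNAs, gave 10.36, 10.24 and 10.57, and Mir18, of the Mir17 cluster, gave 8.92, 8.77 and 9.09. Both were lowest on array 2 and highest on array 3. The array reads the locus, not the processed arm. The mature arms are shown to mark the seeds of these members, with bases 2 to 8 in capitals, together with that of Mir692-1, the brightest miRNA gene with a mature sequence in the RefSeq table (GRCm38.p6, 46 of 59 measured miRNA genes matched).
miR-290a-5p (chr7:3218639-3218660, plus strand): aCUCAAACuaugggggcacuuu
miR-290a-3p (chr7:3218674-3218697, plus strand): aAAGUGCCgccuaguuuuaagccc
miR-18a-5p (chr14:115043867-115043889, plus strand): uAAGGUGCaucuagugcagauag
miR-18a-3p (chr14:115043908-115043929, plus strand): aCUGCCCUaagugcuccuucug
miR-692 (chr17:6895259-6895279, minus strand): aUCUCUUUgagcgccucacuc
No 2 of these 5 arms share a seed. Mir692-1 gave 11.74, 11.84 and 12.11. The 59 miRNA genes had a median signal of 8.87 and a median SD of 0.199, and 11 of them lay under the threshold.

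Many glycolytic genes were bright. Of 26 listed 20 were measured, and 10 were bright, 9 middle, 1 dim and 0 under the threshold, with a median of 11.31. Besides Gapdh, Slc2a1 and Pkm, the phosphoglycerate kinase Pgk1 gave 13.25, 13.29 and 13.24. The lower end of the list held isoforms known from other tissues, the aldolase Aldoc of brain with 9.74, 10.07 and 10.10, the phosphofructokinase Pfkm of muscle with 9.75, 9.90 and 9.92 and the enolase Eno3 of muscle with 9.40, 9.50 and 9.51. All 3 were still called over the threshold. Hexokinase 1 (Hk1), with 8.42, 8.81 and 8.44, was the only dim member, and it could not be called over the threshold (adjusted p = 0.39). The mean of Hk1 fell under the threshold without replicate 2, and without replicate 3 Eno3 became a second dim gene, for 2 in all.

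**Figure D3:**
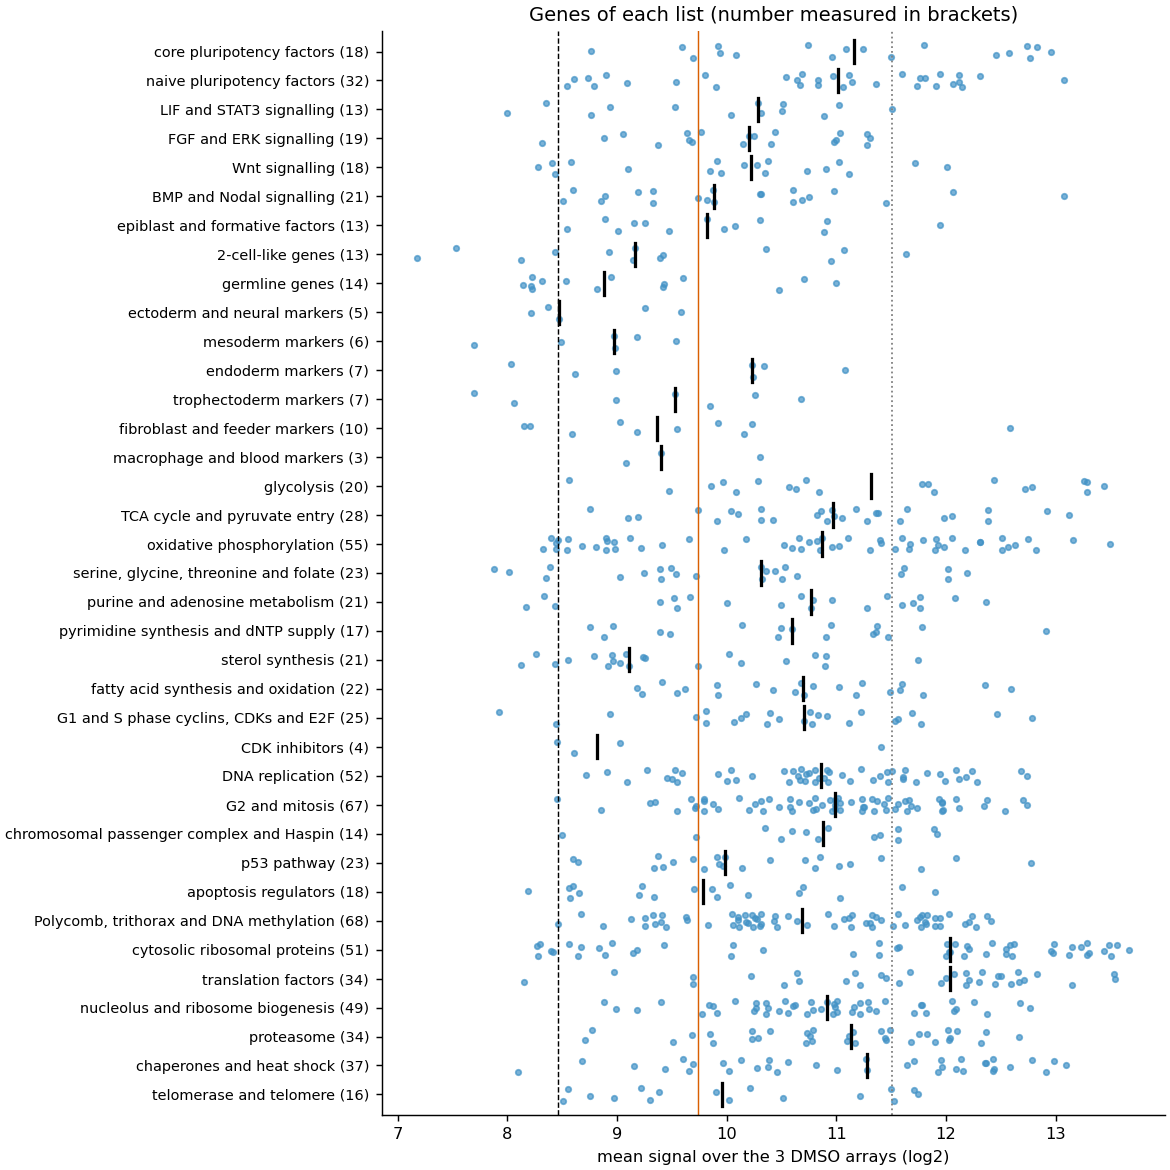
Mean log2 signal over the 3 DMSO arrays of the measured genes of 37 lists (points), with the number of genes in brackets and a black bar at the median of each list. The dashed line is the threshold at 8.46 and the orange line the median of all genes at 9.73. The dotted line is the lower limit of bright genes at 11.51. The translation factor and ribosomal protein lists have medians past the dotted line, and ectoderm markers have a median of 8.47.

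The tricarboxylic acid (TCA) cycle list had 28 of 32 genes measured, and all 28 were called over the threshold, against 85.5% of all genes. The aminotransferases Got2 and Got1, which feed the malate-aspartate shuttle, gave 13.09, 13.18 and 13.09 and 12.35, 12.38 and 12.41. The mitochondrial malate dehydrogenase Mdh2 gave 13.03, 12.84 and 12.89 and the isocitrate dehydrogenase subunit Idh3g 12.36, 12.38 and 12.42. The dimmest members were the succinyl-CoA ligase subunits Suclg1 and Sucla2 with 8.75 ± 0.024 and 9.19 ± 0.018, the pyruvate dehydrogenase component Pdhx with 9.10 ± 0.098 and the succinate dehydrogenase subunit Sdhb with 9.73 ± 0.052. All 4 are components of mitochondrial enzyme complexes.

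Nuclear genes of oxidative phosphorylation spread over the whole range. Of 69 listed 55 were measured, with 21 bright, 17 middle, 13 dim and 4 under the threshold. Atp5b led with a mean of 13.50, followed by the complex IV subunits Cox6a1 and Cox8a with 13.22, 13.07 and 13.17 and 12.76, 12.70 and 12.77 and the complex I subunit Ndufs7 with 12.91, 12.72 and 12.85. Cox4i2, the hypoxia-inducible isoform of a complex IV subunit, gave 8.32, 8.27 and 8.37 (adjusted p = 0.047 under the threshold), a call that was lost when any of the 3 replicates was left out (adjusted p from 0.087 to 0.13). Ndufb3, Uqcrq and Ndufb10, with means of 8.45 ± 0.25, 8.45 ± 0.045 and 8.39 ± 0.11, could not be placed. Of the 55 genes, 33 were lowest on array 2 (60.0%, against 34.6% of all genes).

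In the list of serine, glycine, threonine and folate metabolism, 23 of 30 genes were measured. Shmt2, the mitochondrial serine hydroxymethyltransferase, gave 12.19, 12.21 and 12.16, and Gldc, the glycine decarboxylase that ESCs are known to express, gave 11.94, 12.05 and 12.05. Ahcy, which clears S-adenosylhomocysteine, and Asns, the asparagine synthetase, had means of 12.02 ± 0.16 and 11.62 ± 0.10. Called under the threshold were the cytosolic folate enzyme Aldh1l1 with 7.94, 7.75 and 7.94 and Mthfd2l with 7.97, 8.14 and 7.92. Gcsh, the carrier protein of the glycine cleavage system, had a mean of 8.35 ± 0.11 and the folate carrier Slc19a1 of 8.39 ± 0.12, and neither could be placed. No single-gene probe set of Tdh was analysed here.

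Of 33 genes of purine and adenosine metabolism 21 were measured, with 6 bright, 11 middle, 1 dim and 3 under the threshold. The multifunctional enzymes of purine synthesis Gart, Atic and Paics gave 12.35, 12.42 and 12.32 for Gart, 12.12, 12.17 and 11.94 for Atic and 11.79, 11.71 and 11.78 for Paics, and Gmps, the GMP synthetase, gave 11.73, 11.85 and 11.70. The other bright genes were Adss, an adenylosuccinate synthetase, with a mean of 11.70 ± 0.0067 and Aprt, which salvages adenine, with 11.59 ± 0.22. Ampd3, an AMP deaminase, was called under the threshold with 8.18, 8.18 and 8.15. Ada, adenosine deaminase, gave 8.72, 8.29 and 8.30 and Adssl1, the muscle adenylosuccinate synthetase, gave 7.86, 8.55 and 8.60. Ada lay over the threshold on array 1 only and Adssl1 on arrays 2 and 3 only, and neither could be placed. Nt5c, a nucleotidase, had a mean of 9.39 ± 0.14 and was the 1 dim gene of the list, whereas 4 genes were dim without replicate 1 and 2 without replicate 2 or 3.

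Of 21 genes of pyrimidine synthesis and dNTP supply 17 were measured, and all 17 were called over the threshold (85.5% of all genes were). Uck2, a uridine-cytidine kinase, was the brightest with 12.87, 12.95 and 12.90, and its relative Uck1 the dimmest with 8.75, 8.78 and 8.74. Rrm1, the large subunit of ribonucleotide reductase, had a mean of 11.78 ± 0.067, the trifunctional enzyme Cad of 11.47 ± 0.095 and the thymidylate kinase Dtymk of 11.37 ± 0.15. Dhodh, Cmpk1 and Nme1 were dim with 9.39 ± 0.04, 8.96 ± 0.053 and 8.88 ± 0.099.

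Sterol synthesis was the dimmest of the metabolic lists, with a median of 9.11. Of 26 listed 21 were measured, with 1 bright, 7 middle, 10 dim and 3 under the threshold. Fdft1 (squalene synthase) gave 11.71, 11.64 and 11.87, Hmgcs1, an early enzyme of the pathway, gave 10.82, 11.02 and 10.87, and Srebf2, the transcription factor that controls it, gave 10.78, 10.93 and 10.98. Fdps had a mean of 10.80 ± 0.14. Cyp51, the lanosterol demethylase, gave 8.03, 8.12 and 8.23 and Pmvk, phosphomevalonate kinase, gave 8.24, 8.25 and 8.29, both called under the threshold (adjusted p = 0.0052 and 0.014). The call of Pmvk was lost without replicate 2 (0.052) and without replicate 3 (0.058), and Hsd17b7 and Tm7sf2, with 8.44 ± 0.046 and 8.55 ± 0.042, could not be placed.

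All 22 measured genes of fatty acid synthesis and oxidation, of 30 listed, were called over the threshold, a call that 85.5% of all genes had. The β-oxidation enzyme Hadh gave 12.66, 12.51 and 12.62 and the elongase Elovl6 12.36, 12.30 and 12.39. Fasn, fatty acid synthase, and Acly, which supplies it with acetyl-CoA, had means of 11.79 ± 0.12 and 11.60 ± 0.12. Dimmest were Slc25a20, Acadl, Elovl1 and Fabp5 with means from 9.18 (Fabp5) to 9.55 (Slc25a20).

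Cell cycle genes lay mostly in the upper part of the profile. In the list of G1 and S phase cyclins, CDKs and E2F factors, 25 of 27 genes were measured, with 6 bright, 16 middle, 1 dim and 2 under the threshold. Cdk4 gave 12.78, 12.78 and 12.78 and Ccna2 (cyclin A2) 12.48, 12.43 and 12.48. The repressor E2f4 and its partner Tfdp1 had means of 11.77 ± 0.10 and 11.69 ± 0.057. The lower end held E2f6 with 9.72 ± 0.078, the pocket protein Rbl2 with 8.94 ± 0.10, Ccnd2 (cyclin D2) with 8.60, 8.47 and 8.25 and E2f2 with 7.84, 7.96 and 7.97. E2f2 was called under the threshold (adjusted p = 0.00064), and Ccnd2 lay on both sides of it. Without replicate 3 Ccnd2 passed over the threshold, which left 1 gene of the list under it and made 2 dim.

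Of 8 CDK inhibitors 4 were measured. Cdkn1a (p21) gave 11.56, 11.22 and 11.43, and 88.5% of the genes were dimmer. Cdkn1b (p27), with 8.84, 9.09 and 9.15, was dim but called over the threshold (adjusted p = 0.0012). Cdkn3, a phosphatase that acts on CDKs, gave 8.39, 8.68 and 8.75 and Cdkn2b (p15) gave 8.57, 8.42 and 8.38, and neither was placed by the test (adjusted p = 0.16 and 0.92). The mean of Cdkn2b lay just under the threshold and moved over it without replicate 2 or replicate 3.

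Replication factors were measured for 52 of 53 genes listed, and all 52 were called over the threshold, against 85.5% of all genes. Of these, 15 were bright, 32 middle and 5 dim, and their median was 10.86. The helicase subunits Mcm5, Mcm4 and Mcm7 gave 12.76, 12.77 and 12.68 for Mcm5, 12.27, 12.30 and 12.28 for Mcm4 and 12.25, 12.23 and 12.24 for Mcm7. Pcna, the sliding clamp, gave 12.69, 12.70 and 12.68. Dimmest were the nuclease Fen1 with 9.27 ± 0.17, the kinase Cdc7 with 9.09 ± 0.13, the licensing inhibitor Gmnn (geminin) with 8.91 ± 0.21 and the checkpoint mediator Clspn (claspin) with 8.71 ± 0.096.

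The list of G2 and mitosis had 67 of 72 genes measured, with 19 bright, 44 middle, 3 dim and 1 under the threshold, and 66 were called over the threshold (85.5% of all genes were). Ect2, the exchange factor that directs cytokinesis, gave 12.75, 12.69 and 12.77. Ube2s, the ubiquitin-conjugating enzyme of the anaphase-promoting complex, gave 12.69, 12.72 and 12.70 and Cdc20, its activator, gave 12.60, 12.51 and 12.50. Plk1, the Polo kinase, gave 12.34, 12.38 and 12.40. The SDs of these genes did not exceed 0.054.

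The dim end of the list held Cdc25b, a phosphatase that activates CDK1, with 9.30 ± 0.046, the kinetochore protein Spc24 with 9.34 ± 0.19 and the centromere protein Cenpk with 8.85 ± 0.16. Pttg1 (securin), the inhibitor of separase, gave 8.44, 8.55 and 8.38 and could not be placed (adjusted p = 0.87). Its mean passed over the threshold when replicate 3 was left out, and then 0 genes of the list lay under it.

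The promoter of Ect2 is shown since mitotic genes often carry CCAAT boxes, the sites known to bind NF-Y. Its window (RefSeq, GRCm38.p6, chr3:27153829-27154128, minus strand, the upstream one of 2 that the table holds) has 3 of them, in capitals, the first 2 beginning 96 and 55 bases before the start site and the third just after it.
Ect2: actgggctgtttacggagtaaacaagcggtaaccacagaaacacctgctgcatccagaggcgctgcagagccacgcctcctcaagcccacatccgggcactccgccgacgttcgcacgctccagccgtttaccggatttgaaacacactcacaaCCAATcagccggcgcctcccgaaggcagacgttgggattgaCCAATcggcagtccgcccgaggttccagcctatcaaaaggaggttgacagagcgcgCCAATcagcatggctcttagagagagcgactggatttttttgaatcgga
Searched on both strands, CCAAT was found in 44 of 67 windows of G2 and mitosis genes (65.7%) and in 26 of 51 windows of replication genes (51.0%). It was found in 38.2% of the 8688 windows of all measured genes and in 37.4% of all windows in the table, and bright genes, at 42.0%, and genes under the threshold, at 36.5%, lay near these values. The shares are descriptions of 5 letters in windows of 300 bases.

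The chromosomal passenger complex (CPC), which corrects faulty microtubule attachments, and its partners were measured for all 14 genes listed. Aurkb (Aurora B), its kinase, gave 11.34, 11.35 and 11.32. The scaffold Incenp gave 10.71, 10.77 and 10.67, Cdca8 (borealin) gave 10.49, 10.45 and 10.55 and Birc5 (survivin), which docks on histone H3 phosphorylated by Haspin, gave 10.48, 10.21 and 10.37. All 4 were middle genes, and Birc5 varied most.

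Haspin itself gave 8.53, 8.41 and 8.57, which places it on the threshold (adjusted p = 0.56). It lay over 8.46 on arrays 1 and 3 and under it on array 2, with an SD of 0.083, and it was the dimmest gene of the 14. The heterochromatin proteins Cbx5, Cbx3 and Cbx1 (HP1) had means of 11.91 ± 0.019, 11.89 ± 0.057 and 11.40 ± 0.057. The cohesin regulators Pds5a and Pds5b, which bind Haspin, and Wapl, which releases cohesin, had means of 11.56 ± 0.098, 10.84 ± 0.027 and 10.92 ± 0.055. Vrk1, a related kinase of histone H3, gave 11.56, 11.57 and 11.56, and the centromere guardians Sgo1 and Sgo2a had means of 10.60 ± 0.15 and 9.72 ± 0.16.

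Genes of the p53 pathway were measured for 23 of 32, with 3 bright, 15 middle, 5 dim and 0 under the threshold. Ccng1 (cyclin G1), a p53 target, gave 12.86, 12.74 and 12.73, Ei24 12.12, 12.04 and 12.11 and Trp53inp1 11.80, 11.77 and 11.76. Cdkn1a, given above, followed. Dim members were Ccng2 (cyclin G2) with 9.42 ± 0.14, Ephx1 with 9.37 ± 0.12, Sesn1 with 9.33 ± 0.054, Xpc with 8.64 ± 0.056 and Bbc3 (Puma), a death-inducing BH3 protein, with 8.63, 8.53 and 8.63. Bbc3 missed the call (adjusted p = 0.052), and the call of Xpc (adjusted p = 0.018) was lost without replicate 2 (0.058) and without replicate 3 (0.11). Of the 23 genes, 14 were highest on array 1 (60.9%, against 35.1% of all genes), with a median deviation of 0.065 log2 units. Array 1 was also the highest for 11 of 18 core pluripotency factors (61.1%) and 21 of 34 proteasome genes (61.8%). For G2 and mitosis genes it was the highest for 12 of 67 (17.9%).

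Of 30 apoptosis regulators 18 were measured. Mcl1, an anti-apoptotic protein, gave 11.88, 11.90 and 11.93 and was bright, as was Cycs (cytochrome c) with 11.51, 11.81 and 11.48. Birc6 and Htra2 had means of 11.03 ± 0.14 and 10.70 ± 0.017. Casp8, Birc2, Xiap and Bcl2, with means of 8.60 ± 0.07, 8.57 ± 0.15, 8.56 ± 0.026 and 8.19 ± 0.23, could not be placed. Without replicate 2 Cycs dropped out of the bright class.

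In the list of the integrated stress response and hypoxia, 22 of 32 genes were measured. The amino acid transporter Slc7a5 and its heavy chain Slc3a2 gave 12.33, 12.59 and 12.47 and 12.42, 12.47 and 12.47, and the arginine transporter Slc7a3 gave 11.55, 11.31 and 11.35. The kinase Eif2ak4 (Gcn2) was dim with 8.75 ± 0.087. Atf3, an early stress factor, and Car12, a hypoxia target, were called under the threshold with 8.06 ± 0.068 and 8.18 ± 0.096 (adjusted p = 0.0018 and 0.0088), and that of Car12 was lost without replicate 2 (0.053). Chac1, the glutathione-degrading target of Atf4, gave 7.79, 8.45 and 9.02, from under to over the threshold. It had the second largest SD of all protein-coding genes that are no numbered loci.

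Chromatin regulators were measured for 68 of 84, with 21 bright, 36 middle, 10 dim and 1 under the threshold. The Polycomb genes Jarid2, Phc1, Rbbp4 and Rbbp7 gave 12.44, 12.44 and 12.35 for Jarid2, 12.27, 12.27 and 12.28 for Phc1, 12.38, 12.39 and 12.36 for Rbbp4 and 12.19, 12.34 and 12.18 for Rbbp7. At the dim end were Brd9, Yaf2 and Phc3 with 9.13 ± 0.14, 8.87 ± 0.087 and 8.67 ± 0.11. Tet3, the methylcytosine dioxygenase of the oocyte, gave 8.45, 8.63 and 8.31 and could not be placed (adjusted p = 0.96), and without replicate 1 or replicate 3 its mean lay over the threshold, so that 0 genes of the list were under it. The other enzymes of the Tet family, given with the naive factors, were bright (Tet1) and middle (Tet2). The call of Phc3 (adjusted p = 0.025) was lost without replicate 1 (0.11) and without replicate 3 (0.14).

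Ribosomal protein genes, measured for 51 of 83, ranged in signal from the top of the profile to under the threshold. Of these, 31 were bright, 6 middle, 9 dim and 5 under the threshold, and the median was 12.04. The 5 with means under the threshold included Rps15 with 8.54, 8.01 and 8.27 and Rps20 with 8.26, 8.05 and 8.51. Rpl5 with 8.58, 8.08 and 8.23 and Rps18 with 8.54, 8.26 and 8.38 also belonged to them. The test called 0 of the 5 under the threshold, against 276 of all 728 genes with a mean below it. Probe sets of 1 ribosomal gene can differ widely, with means of 13.14, 13.09 and 8.27 for Rpl7a. Whether the low values above lie with the probe sets was not tested. Of the 51 genes, 34 were lowest on array 2 (66.7%, against 34.6% of all genes).

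Of 39 translation factors 34 were measured, and 21 were bright, with a median of 12.04. Beside Eef1a1 and Eef2, the helicase Eif4a1 gave 12.84, 13.31 and 13.29 and Eif3f gave 12.81, 12.89 and 12.79. Eef1a2, the isoform of muscle and neurons, gave 8.13, 8.12 and 8.20 and was called under the threshold (adjusted p = 0.0034). Dim or low in the middle class were Eif2s2 with 8.97 ± 0.057, Pabpc1 with 9.69 ± 0.027 and Eif5b with 9.70 ± 0.088. All 49 measured genes of the nucleolus and ribosome biogenesis, of 51 listed, were called over the threshold, beside 85.5% of all genes. Ncl (nucleolin) gave 12.66, 12.86 and 12.77, Npm1 (nucleophosmin) 12.61, 12.69 and 12.74, Nop10 12.48, 12.31 and 12.34 and Ddx21 12.26, 12.32 and 12.18. The dimmest were Rrp12, Polr1d, Polr1e and Taf1c, from 8.88 (Taf1c) to 9.40 (Rrp12). Of the 49 genes, 29 were highest on array 1 (59.2%, against 35.1% of all genes) and 30 were lowest on array 3 (61.2%, against 26.3%).

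Proteasome genes were measured for 34 of 39 and all 34 were called over the threshold, against 85.5% of all genes. Among them were 11 bright genes led by the catalytic subunit Psmb5 with 12.68, 12.72 and 12.59. Psmd8, Psmc4 and Psmd7 had means of 12.36 ± 0.092, 12.32 ± 0.069 and 12.10 ± 0.15. Psmb10 and Psme2, of the immunoproteasome and its activator, had means of 9.69 ± 0.12 and 8.78 ± 0.064, Psmd13 of 9.51 ± 0.079 and Psmb3 of 8.70 ± 0.15. The call of Psmb3 (adjusted p = 0.028) was lost when any of the 3 replicates was left out (adjusted p from 0.054 to 0.099).

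Chaperones were measured for 37 of 43, and 18 were bright. Canx (calnexin) gave 13.04, 13.14 and 13.10, Cct2, of the cytosolic chaperonin, 12.96, 12.93 and 13.06, Hspa8, the constitutive Hsp70, 12.90, 12.89 and 12.93, and Hspa4 12.76, 12.84 and 12.75. The stress-inducible Hsp70 genes stood at the other end, with 8.22, 7.82 and 8.26 for Hspa1a and 9.19, 8.96 and 9.31 for Hspa1b. Hspa1a was called under the threshold (adjusted p = 0.026) and lost the call without replicate 1 (0.079) and without replicate 3 (0.062). Hspa1a and Hspa1b are near-identical copies whose signals may be shared. Dnajb1 had a mean of 9.43 ± 0.11. Pfdn5, of the prefoldin complex, had a mean of 8.68 ± 0.17, and its call over the threshold (adjusted p = 0.048) was lost when any of the 3 replicates was left out (adjusted p from 0.051 to 0.16).

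Telomere genes were measured for 16 of 17. Terf1 and the dyskerin gene Dkc1 gave 11.66, 11.76 and 11.80 and 11.81, 11.61 and 11.70, and Ctc1 had a mean of 11.53 ± 0.026. Tert, the reverse transcriptase of telomerase, gave 8.62, 8.81 and 8.84, dim but called over the threshold (adjusted p = 0.0081), a call lost without replicate 2 (0.065) and without replicate 3 (0.068). Its RNA partner Terc, chosen after its values were seen, gave 13.22, 13.44 and 13.39 and ranked among the 25 brightest genes of any kind. Tinf2, Ten1 and Pot1b had means of 8.97 ± 0.14, 8.56 ± 0.076 and 8.50 ± 0.027, and Ten1 and Pot1b could not be placed. Of the reference genes in common use, 22 of 30 were measured and 12 were bright. Tuba1c, Gusb, Tubb4b and Lmnb2 formed the lower end, with 9.66 ± 0.0086, 9.13 ± 0.14, 8.75 ± 0.10 and 8.45 ± 0.024. Lmnb2 could not be placed, and the call of Tubb4b (adjusted p = 0.0063) was lost without replicate 3 (0.058).

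The spread between the 3 arrays was small for most genes. The median SD was 0.084 log2 units, 2150 genes had an SD under 0.05, and 147 genes (1.70%) spanned more than 1.5-fold from the lowest to the highest array. The spread was smaller at high signal, with a median SD of 0.059 in the brightest 10% of the genes, where 1 gene spanned more than 1.5-fold, and of 0.11 in the dimmest 10%, where 37 did. Across genes the arrays correlated with r of 0.985 (1 and 2), 0.990 (1 and 3) and 0.991 (2 and 3), and genes are not independent replicates. Of the 100 brightest genes on each array, 85 were shared by all 3.

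No probe set was called for spread by the test of its variance against that of probe sets with like signal (0% of 10476), while 280 had an unadjusted p under 0.05. The same count of 0 was found in every setting tried. The test called 0% of simulated probe sets even at 50 times the usual SD when variances scattered as in the model fitted here. It therefore says nothing on any gene, and the spreads below are descriptions. Exactly equal values also occurred: 21 genes, Tubb5 among them, had 1 value on all 3 arrays and 282 had 1 value on 2 arrays, and there an SD of 0 or close to it is no measure of error.

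**Figure D4:**
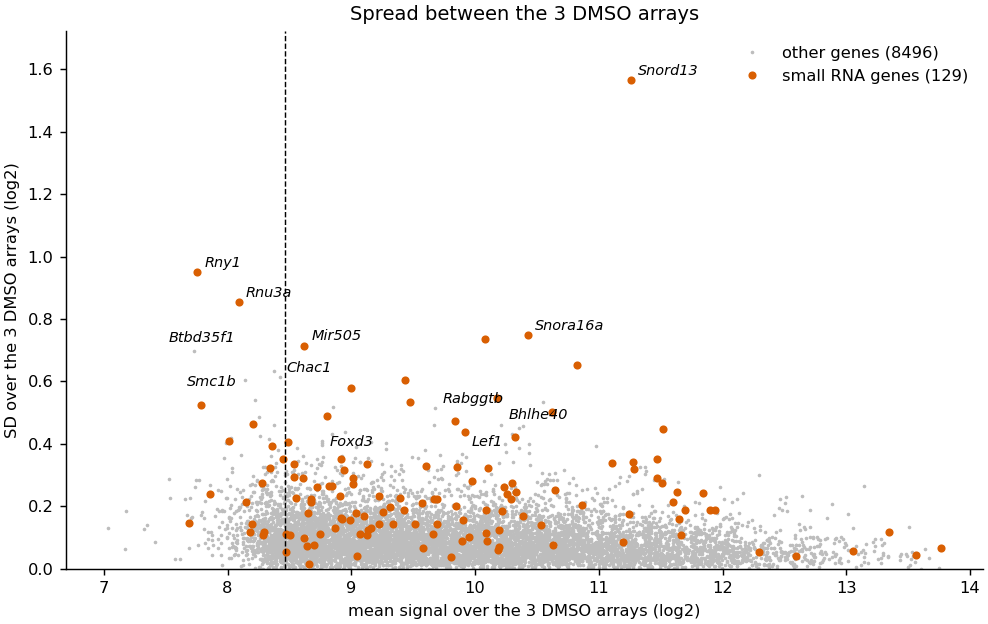
SD over the 3 DMSO arrays (y axis, log2 units) against the mean signal (x axis, log2 units) of all genes, with 129 small RNA genes in orange and the others in grey, and the threshold at 8.46 dashed. Many small RNA genes lie above the grey cloud, with Snord13 at an SD of 1.57, while Chac1, Smc1b and Btbd35f1 have the largest SDs among named protein-coding genes.

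The 15 genes of largest SD, small RNAs and numbered loci aside, had SDs from 0.43 to 0.70. Btbd35f1, of an X-linked multicopy family, gave 7.28, 8.53 and 7.37 and was high on array 2. Chac1 and Smc1b were low on array 1, as was Lrrc31 with 7.70, 8.47 and 8.59. Bhlhe40, a helix-loop-helix repressor of the circadian and stress responses, gave 9.69, 10.36 and 10.58, and Hmgn5, a nucleosome-binding protein, gave 7.87, 8.78 and 8.47, both again lowest on array 1. The immediate early gene Fosb gave 8.79, 7.71 and 8.16 with array 1 at the top.

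Rasl11a gave 9.36, 8.32 and 8.88, Med11 10.09, 9.18 and 9.75 and Snrnp25 10.84, 9.92 and 10.41. Tex19.1, a germline and placental protein that guards against retrotransposons, gave 9.30, 8.46 and 9.08, Idnk 10.58, 9.80 and 10.52 and H4f16 10.56, 9.84 and 10.66. These 6 genes were all lowest on array 2. The call of Tex19.1 over the threshold (adjusted p = 0.047) was lost without replicate 1 (0.24) and without replicate 3 (0.23). Rabggtb, a subunit of the enzyme that prenylates Rab proteins, went the other way with 9.31, 10.27 and 9.46, highest on array 2.

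Small RNA genes often spanned wide ranges between the arrays. Of 129 small RNA genes 35 (27.1%) spanned more than 1.5-fold, against 102 of 8284 nuclear protein-coding genes (1.23%), and their median SDs were 0.21 and 0.083. The examples that follow were chosen after their values were seen. Snord13, a small nucleolar RNA that guides rRNA acetylation, had the largest SD of all 8625 genes with 10.10, 13.04 and 10.63, a 7.66-fold span on the linear scale. The H/ACA RNAs Snora16a, Snora44, Snora73a and Snora73b, all of chromosome 4, gave 9.76, 11.23 and 10.28 for Snora16a, 10.25, 11.53 and 10.70 for Snora73a, 8.93, 10.11 and 9.26 for Snora73b and a mean of 10.08 ± 0.74 for Snora44. In each of them array 2 was the highest and array 1 the lowest.

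The same order was seen for Rny1, a Y RNA, with 6.69, 8.52 and 8.06, for Rnu3a, the U3 RNA of rRNA processing, with 7.21, 8.91 and 8.15, and for Snora31 with 8.50, 9.63 and 8.85. Other small RNAs did not follow it. Mir505 gave 9.15, 7.81 and 8.90, lowest on array 2, and of all 54 small nucleolar RNA genes 15 were highest on array 1, 13 on array 2 and 26 on array 3. The brightest small RNAs differed in their spread. Mir5099, the brightest gene of the profile, gave 13.69, 13.82 and 13.78, Rn7sk, the 7SK RNA that holds the elongation factor P-TEFb inactive, gave 13.52, 13.61 and 13.56, and Snora33 gave 12.57, 12.57 and 12.64. Terc had an SD of 0.12. Snora21, with 11.75, 11.95 and 12.12, and Mir692-1, with 11.74, 11.84 and 12.11, had SDs of 0.19 and 0.19, both lowest on array 1 and highest on array 3.

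Long non-coding RNA genes were seldom highest on array 2. Of 101 such genes, 43 were highest on array 1, 7 on array 2 and 49 on array 3, and their median deviation on array 2 was -0.12 log2 units, against 0.0022 for nuclear protein-coding genes. Their median signal was 9.10, with 4 bright and 29 under the threshold. Malat1, the abundant nuclear RNA, gave 12.65, 12.55 and 12.92 and Tug1 gave 11.52, 11.60 and 11.68, and Snhg1 and Zfas1, hosts of small nucleolar RNAs, gave 11.58, 11.24 and 11.55 and 11.56, 11.00 and 11.56 (all 4 chosen after their values were seen). Malat1, Snhg1 and Zfas1 were lowest on array 2 and Tug1 on array 1.

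**Figure D5:**
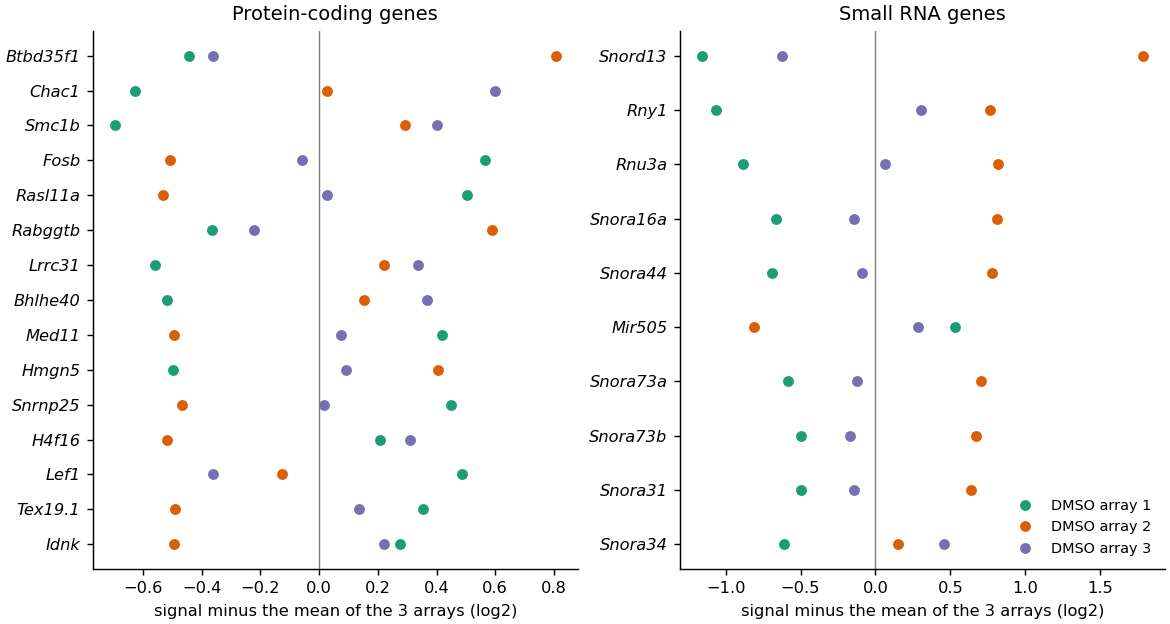
Signal on each DMSO array minus the mean of the 3 arrays (x axis, log2 units) for the 15 protein-coding genes (left) and the 10 small RNA genes (right) of largest SD; each row is a gene and each colour an array. Array 2 is the highest for all small RNA genes shown but Mir505 and Snora34, and array 1 the lowest for all of them but Mir505.

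The 3 arrays did not depart from their mean equally. Among the 147 genes that spanned more than 1.5-fold, array 1 was farthest from the mean for 72, array 2 for 65 and array 3 for 10. Array 1 was low in 46 and high in 26 of its genes, and array 2 low in 48 and high in 17. In lists of at least 13 measured genes, the median deviation of an array from the mean stayed at or below 0.131 log2 units in size, the value of germline genes on array 3. Genes for oxidative phosphorylation had median deviations of 0.019, -0.063 and 0.0078 on arrays 1, 2 and 3, and ribosomal protein genes of 0.026, -0.058 and 0.017. Shares of genes highest or lowest on an array are given above for some lists only, and several other lists also departed from the shares of all genes. Each culture was read on 1 array, and culture and array cannot be told apart.

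For 147 genes more than 1 single-gene probe set was measured, and they often disagreed. The median gap between the brightest and the dimmest probe set was 1.56 log2 units, 90 genes had a gap over 1 log2 unit, and 18 genes had probe sets on both sides of the threshold. The largest gap, 5.40 log2 units, was that of Rpl41, a gene with 5 probe sets, of which 4 lay between 13.22 and 13.55 and the fifth at 8.15. Gart had probe sets at 12.36 and 8.38, and Fau, a ribosomal protein fused to a ubiquitin-like domain, at 12.97 and 8.84. A low signal of a gene with 1 probe set is to be read with this in mind.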

How the data were processed

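Total RNA of 3 biological replicates per condition was hybridized to GeneChip Mouse Gene 2.0 ST arrays. The submitters' processing notes name RMA, a method that gives background-corrected, quantile-normalized log2 values, and Affymetrix Expression Console, without their roles. Per the study's methods, the authors assessed quality and background in Expression Console, analysed the normalized data in GeneSpring and kept probes over a background threshold of 353, read here as linear signal. The deposited log2 values were used as they stand, and every row exceeded 353 on at least 1 of the 9 arrays. Precision rests on the 3 arrays, since array values have no read depth.

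Of 10476 rows, 8854 name 1 gene by the platform annotation, and 8822 of these were found in RefSeq by their gene number. A gene with several probe sets was represented by the brightest in DMSO. Each row was tested two-sided against log2 of 353 over the 3 DMSO arrays with limma 3.58.1 (R 4.3.3), with a variance prior that follows signal and Benjamini-Hochberg adjustment over all 10476 rows at 0.05. The spread of each row was tested against the same prior. Arrays were simulated with the measured means, apart from rows set at or near the threshold, and with SDs drawn from the fitted variance prior. Of rows set 0.25 log2 units over the threshold 72% were called, and 84% of rows set as far under it. At 0.5 log2 units these shares were 96% and 98%, and 3.1% of rows set on the threshold were called. The test of spread called 0% of rows with 10 or 50 times the usual SD. It called 95% of both where every other row had exactly the prior SD for its signal.

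In 41 lists, 1316 genes were named, of which 920 were measured. The members and lists were chosen with earlier results of these data known. Named are the 25 brightest genes and the 15 of largest SD (numbered loci and small RNAs aside), all measured core, naive, LIF, passenger complex and CDK inhibitor genes, the 4 brightest and 4 dimmest of every other list, and the 3 genes on each side of each class limit. Lists were described by counts and medians, and tied values made no array the highest or lowest. Alternatives were other normalizations, variance priors, limits of p, thresholds and class limits, the mean over probe sets, single-gene rows only, and leaving out each replicate.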

Additional observations from a re-analysis of the deposited data

How the results depend on the processing

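The number of probe sets called over the threshold, 8862, stayed between 8416 and 8999 in all settings that tested all rows. The number called under it, 349, ranged from 203 to 291 when a replicate was left out and was 172 at an adjusted p under 0.01. No probe set was called for spread in any setting, and the lowest adjusted p was 0.925 with all rows and 0.128 after quantile normalization. With the threshold 1 log2 unit higher, 4782 genes lay over it on all 3 arrays and 3584 had means under it, in place of 7578 and 728. With the threshold 0.5 log2 units higher, 2208 genes had means under it. Over all lists, with a gene of several lists counted once, 254 bright genes became 154 with the brightest 5% and 395 with the brightest 20%, and 158 dim genes became 75 when dim meant within 0.5 log2 units of the threshold. These changes follow from where the limits were drawn. Of 374 named genes, 355 kept their call without replicate 1, and 356 did without replicate 2 and without replicate 3. No named gene called on either side of the threshold had its mean on the other side in any setting tried, while means of genes with no call crossed it when a replicate was left out, such as those of Hk1 and Tet3, and a few did on renormalization. No paired analysis was possible because a single group of arrays was used. Of simulated rows 0.25 log2 units from the threshold, 72% of those over it and 84% of those under it were called. Some such rows are thus missed with 3 arrays. Smaller distances were not simulated, apart from rows on the threshold.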
